A study of Homo sapiens with 12 samples.

Results

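The transcripts described here are the 132 genes, of 60583 gene symbols counted, whose symbol ends in -DT. The suffix marks a non-coding transcript that starts near a protein-coding gene and runs away from it, and the letters before the suffix name that gene, called the partner here. All 132 partners were found in the count tables, 130 by symbol and 2 by an older symbol (CFAP100 for CCDC37-DT and GARS1 for GARS-DT). Every partner was protein-coding and lay on the opposite strand. New RNA was measured by TT-seq, which labels RNA made during a short pulse with a thiol-bearing base, breaks it into short fragments and sequences the labelled ones. U2OS, an osteosarcoma line of human origin, was used as such and as its derivative U2OS-AsiSI, which carries AsiSI-ER, a form of the restriction enzyme AsiSI. Both received either siCtrl, the control siRNA, or siINTS11, which targets INTS11, and RNA was taken 48 h after transfection from 3 samples of each of the 4 groups. All 6 U2OS-AsiSI samples, siCtrl included, had also received OHT for 1 h, and no U2OS sample is labelled with OHT, so the AsiSI-ER genotype and OHT cannot be told apart.

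Many human promoters are bidirectional: RNA polymerase II starts in both directions from neighbouring start sites, and the transcript running away from the gene is usually terminated early and degraded by the nuclear exosome. Where such an upstream transcript is long, stable or spliced enough to be annotated, it may receive a -DT symbol or another name. INTS11 is the RNA endonuclease of Integrator, a complex that cleaves new RNA on polymerases near promoters and so ends short non-coding transcripts. The comparisons therefore bear on how the DT transcripts and their partners, which share a promoter region, changed when INTS11 was targeted.

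The layout of the pairs was read from the counted gene spans. In 121 pairs the starts of the DT transcript and its partner lay within 2000 bases of each other, with a gap between the starts in 88 pairs and overlapping 5′ ends in 33. The median distance between the starts of these 121 pairs was 169 bases. The other 11 pairs had counted starts further apart, among them MAPK6-DT, whose start lies inside the counted span of MAPK6. RefSeq places the start of the partner's chosen transcript within 2000 bases of the DT start in 5 of the 8 such pairs that could be looked up, MAPK6-DT included. The median DT span was 10315 bases, from 366 to 460252.

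Bases between the starts of 6 pairs are shown because these pairs cover the patterns found below. The DT transcript rose and its partner fell at METTL14 and PCCA. Both rose at IBA57 and, in U2OS-AsiSI, at CD2BP2, and both fell at GMDS. At RAB30 the partner fell while no change of the DT transcript was called. Each sequence is RefSeq's (GRCh38.p14), read 5′ to 3′ on the DT strand, and is cut so that it holds only bases outside the partner, ending with base 50 of the DT transcript. At most 250 bases before the DT start are shown, which for IBA57 leaves out the bases nearest to the partner. Capitals mark matches to CCAAT or to GGGCGG on either strand. The METTL14-DT sequence is chr4:118685292-118685391 on the minus strand, and the PCCA-DT sequence is chr13:100088894-100089014, also minus. The IBA57-DT sequence is chr1:228165463-228165762 (minus), and the CD2BP2-DT sequence is chr16:30355309-30355483 (plus). The GMDS-DT sequence is chr6:2245606-2245802 (plus), and the RAB30-DT sequence is chr11:83071924-83072115 (plus).
METTL14-DT: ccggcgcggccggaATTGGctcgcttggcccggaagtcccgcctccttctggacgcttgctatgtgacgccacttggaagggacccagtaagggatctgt
PCCA-DT: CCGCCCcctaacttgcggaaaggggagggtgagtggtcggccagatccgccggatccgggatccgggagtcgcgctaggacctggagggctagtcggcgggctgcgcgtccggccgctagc
IBA57-DT: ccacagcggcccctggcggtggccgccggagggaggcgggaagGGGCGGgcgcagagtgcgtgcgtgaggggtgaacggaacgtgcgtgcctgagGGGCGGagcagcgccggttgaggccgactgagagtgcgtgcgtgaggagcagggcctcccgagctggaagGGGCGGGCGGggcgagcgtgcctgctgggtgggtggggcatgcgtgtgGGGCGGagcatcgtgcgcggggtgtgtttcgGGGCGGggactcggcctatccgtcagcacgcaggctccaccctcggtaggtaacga
CD2BP2-DT: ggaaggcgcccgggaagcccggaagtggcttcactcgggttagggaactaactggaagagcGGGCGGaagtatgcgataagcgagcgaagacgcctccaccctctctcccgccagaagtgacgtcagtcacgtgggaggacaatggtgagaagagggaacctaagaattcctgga
GMDS-DT: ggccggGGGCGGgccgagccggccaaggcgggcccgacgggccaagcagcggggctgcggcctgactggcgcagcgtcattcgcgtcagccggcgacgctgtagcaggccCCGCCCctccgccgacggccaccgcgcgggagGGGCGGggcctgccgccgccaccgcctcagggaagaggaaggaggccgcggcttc
RAB30-DT: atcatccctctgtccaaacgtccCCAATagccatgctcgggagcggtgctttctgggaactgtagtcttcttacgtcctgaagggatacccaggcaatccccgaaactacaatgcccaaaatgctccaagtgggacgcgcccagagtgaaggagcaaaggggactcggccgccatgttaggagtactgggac

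A RefSeq window from 250 bases before to 50 bases after the RefSeq start was matched by name to 101 of the 132 DT transcripts. Only 51 of the 101 had a RefSeq start within 20 bases of the counted start, and the others were kept at any distance. GGGCGG, the core of the GC box, was found on either strand in 81 of these windows (80.2%), against 45.0% of all 35116 RefSeq windows. CCAAT was found in 36.6% of the DT windows and 34.6% of all windows, and TATAAA in 4.95% and 11.5%. The median GC content was 68.0% in the DT windows and 58.7% in all windows. Whether the share with the GC box differs beyond base composition was not tested. Among DT transcripts called higher after siINTS11 in U2OS-AsiSI, 34 of 42 windows held GGGCGG (median GC content 66.5%). Among those called lower 7 of 8 did (68.5%), and among those not called 16 of 22 did (70.2%). A match is only a match of letters, and no factor's binding was measured.

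The 12 libraries held between 20704611 and 38065726 counted reads. INTS11 itself was at 9.64, 11 and 9.83 counts per 1000000 (CPM, scaled by TMM) in the U2OS-AsiSI siCtrl libraries and at 9.01, 9.33 and 9.49 with siINTS11, a log2 change of -0.13 ± 0.08 (SE, edgeR adjusted p = 0.172). In U2OS it was at 10.1, 8.88 and 10.1 CPM with siCtrl and at 7.86, 7.07 and 7.19 with siINTS11, a log2 change of -0.42 ± 0.09 (edgeR adjusted p = 6.08e-05). The labels do not say whether samples of a group came from separate cultures, so p-values measure the spread between these samples. The siRNA groups did not overlap in either line, and the fall was called in U2OS alone. The difference between the lines was not called (0.25, edgeR adjusted p = 0.235). These reads are of new RNA. Mature INTS11 mRNA and protein were not measured here, so the values do not show how far INTS11 was depleted in either line. Of 8 osteoblast-lineage markers, RUNX2, ALPL, COL1A1 and SPARC were at 1 CPM or more on average and BGLAP was under 0.1. Their summed level was 622 to 647 CPM with siCtrl and 433 to 465 with siINTS11 in U2OS-AsiSI, and 769 to 797 and 513 to 556 in U2OS. Summed endothelial markers (PECAM1, VWF and CDH5, all 3 at 1 CPM or more) were at 5.9 to 6.55 CPM with siCtrl and 13.2 to 13.7 with siINTS11 in U2OS-AsiSI, and at 6.1 to 7.44 and 14.1 to 15.1 in U2OS. The 4 epithelial markers summed to 10.3 to 14.9 CPM over all libraries and the 4 blood markers to at most 0.282 CPM; the part of any of these in the results was not tested.

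DT transcripts were a small share of all reads. They held 0.088% ± 0.0025 of the counts (SD, n = 3) in U2OS-AsiSI siCtrl and 0.113% ± 0.0026 in U2OS-AsiSI siINTS11. In U2OS the shares were 0.085% ± 0.0021 and 0.109% ± 0.0021. Reads were concentrated in few members: APCDD1L-DT and ITGB1-DT together held 39.5% of all DT reads, and the 10 most abundant held 64.4%. Without those 10, the share was 0.0294% ± 0.00158 and 0.0437% ± 0.00157 in U2OS-AsiSI, and 0.0269% ± 0.00126 and 0.0415% ± 0.00142 in U2OS. The rise of the share was thus seen in both lines with and without the abundant members. These shares are of unscaled counts. With TMM scaling, as in the tests, the summed DT level rose by less. It went from 919 to 1030 CPM in U2OS-AsiSI and from 925 to 1050 CPM in U2OS. In all, 108 members had a read in every library and 7 had none in any. Of these 7, PIGY-DT and CDKN2A-DT are wholly covered by other genes on their own strand and could receive no count, and the others were CRIM1-DT, DDR1-DT, C9orf135-DT, RASSF10-DT and SEPTIN9-DT.

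Per length, most DT transcripts were made at a lower level than their partner. Over the 93 pairs with both genes above the low-count filter, the median DT level in U2OS-AsiSI siCtrl was 0.312 reads per counted kilobase per 1000000 reads (RPKM), and the median partner level was 1.17. The DT level was a median 21.4% of the partner's (quartiles 5.87% and 63.5%). In 16 of the 93 pairs the DT transcript was above its partner. With siINTS11 the median share was 30% (quartiles 11.8% and 97.5%), and 23 DT transcripts were above their partner. In U2OS the medians were 18.5% with siCtrl and 28.6% with siINTS11, with 15 and 22 DT transcripts above their partner.

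**Figure D1:**
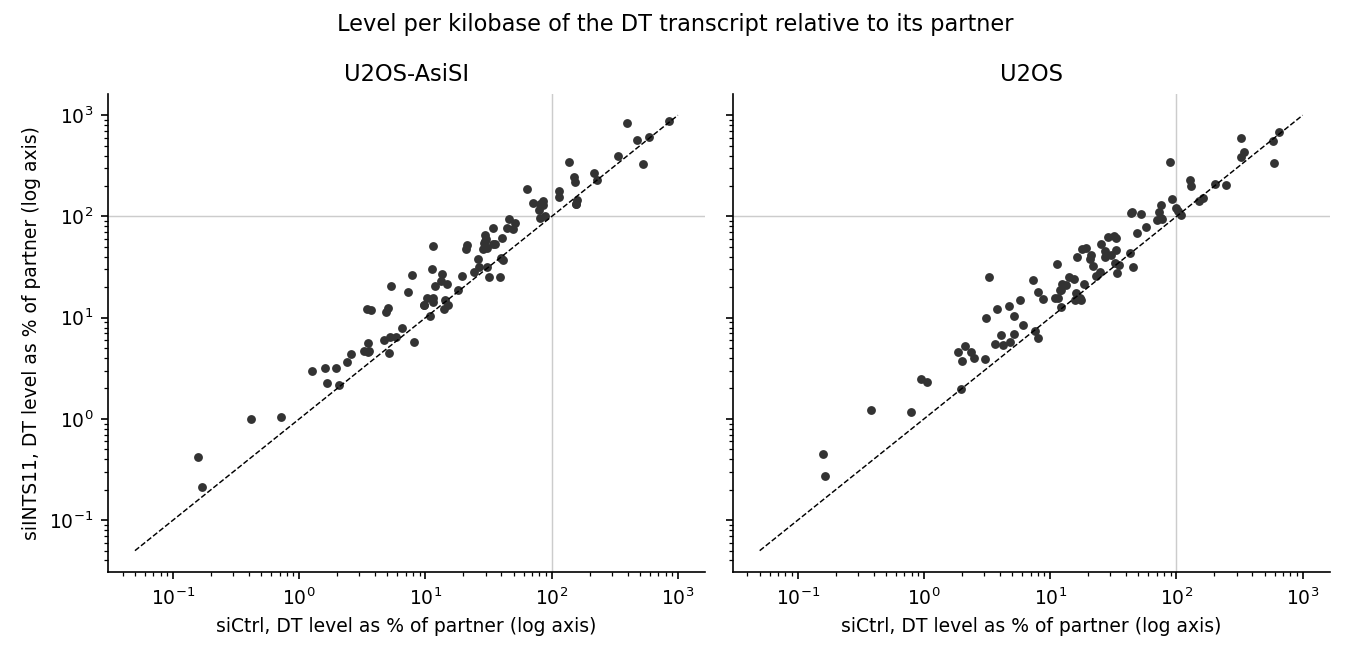
Level per kilobase of each DT transcript as a percentage of its partner's level, with siCtrl on the horizontal and siINTS11 on the vertical log axis, for 93 pairs in each line. Each point is a pair, grey lines mark 100% and the dashed line marks no change. Most points lie above the dashed line, and the median moved from 21.4% to 30% in U2OS-AsiSI and from 18.5% to 28.6% in U2OS.

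Among the DT transcripts with the highest level per kilobase in U2OS-AsiSI siCtrl were MAN1B1-DT (3.43), CAPN10-DT (3.34), ZKSCAN2-DT (2.75), LLPH-DT (2.52) and NIPBL-DT (2.47), all in RPKM. MAN1B1, a mannosidase of the endoplasmic reticulum, was itself at 0.726 on the same scale and CAPN10, a calpain protease, at 1.0, so these DT transcripts exceeded their partners. NIPBL, the cohesin loader, was at 2.77, above its DT transcript. After siINTS11, MAN1B1-DT, CAPN10-DT and ZKSCAN2-DT rose in both lines (log2 changes of 0.30 to 0.71 in U2OS-AsiSI). LLPH-DT passed the threshold in neither line (0.12 ± 0.08 and -0.17 ± 0.09), though it was called higher in U2OS-AsiSI with library totals alone (0.31) and lower in U2OS without replicate 2 of U2OS siCtrl (-0.22). NIPBL-DT was lower in U2OS-AsiSI by the call (-0.15 ± 0.06, edgeR adjusted p = 0.03) but stood at 0.04 there when libraries were scaled by their totals alone.

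The effect of siINTS11 in U2OS-AsiSI was tested across all genes with edgeR's quasi-likelihood test, calling a change at a Benjamini-Hochberg adjusted p under 0.05. Of the 132 DT transcripts, 92 passed the filter on low counts. Of these 53 were higher and 12 lower with siINTS11, beside 35.4% of the 20441 tested genes higher and 32.6% lower. The median log2 change was 0.43 over the tested DT transcripts and 0.03 over all tested genes. The higher DT transcripts had changes from 0.30 to 1.97, with a median of 0.71 (1.63-fold), and 12 of them at least doubled. The 92 include 4 members, named below, that passed the filter through their siINTS11 libraries alone. For these the filter favoured a rise, and the values were not computed without them. The 12 lower ones ran from -1.32 to -0.14, and 2 of them fell by a factor of 2 or more. In bulk libraries, a change in each cell and a change in the number of cells making a transcript cannot be told apart.

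The share of DT transcripts called higher was close to that of other named non-coding classes. In U2OS-AsiSI, 57.6% of the tested DT transcripts were higher and 13% lower. The genes named as antisense transcripts (-AS) had 58.6% higher and 11.6% lower with a median of 0.41, and the LINC genes had 52.5% and 21.4% with a median of 0.40. The partners of DT transcripts went the other way on balance: 25 of 120 tested were higher and 62 lower, with a median of -0.19. Counts over members that passed the filter describe those members alone. The 40 untested DT transcripts had low reads, 87 to 173 per library in sum; 24 had a higher mean CPM with siINTS11, 9 a lower one and 7 no reads. DENND6A-DT, LY6E-DT, FBXO3-DT and LHX1-DT, named after their values were seen, passed the filter through their siINTS11 libraries alone.

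**Figure D2:**
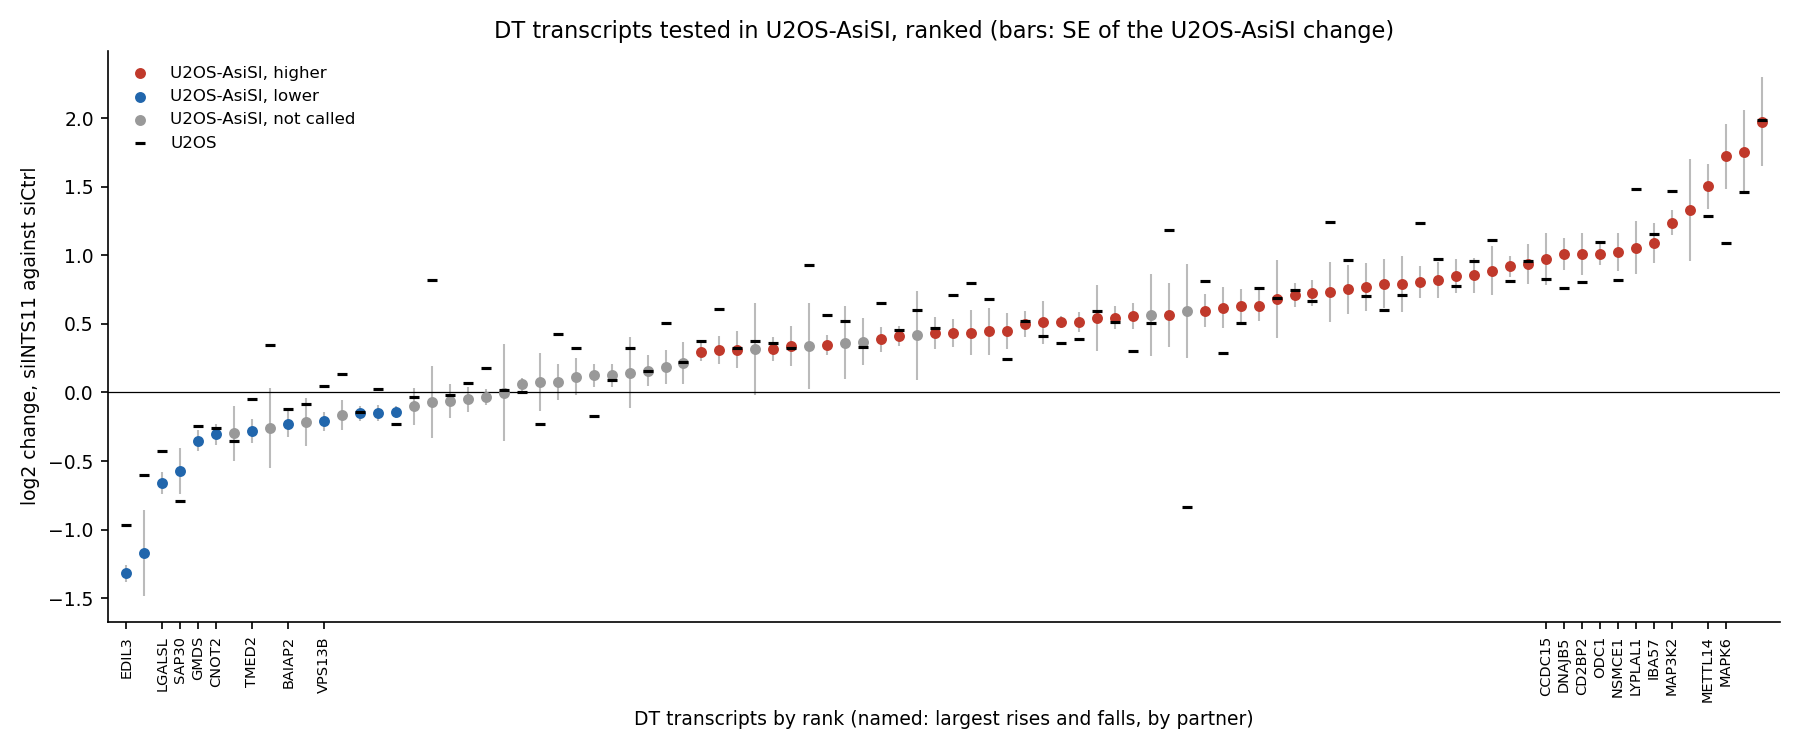
Log2 change with siINTS11 of the 92 DT transcripts tested in U2OS-AsiSI, ranked, with the 10 largest rises and 8 largest falls by the naming rule labelled by their partner's name. Points are U2OS-AsiSI values with their SE, coloured by the edgeR call, and black dashes are the values in U2OS; 53 points are red (higher) and 12 blue (lower).

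The 10 largest rises among the DT transcripts that averaged 30 or more reads in their higher group, with siRNA groups that did not overlap, spanned log2 changes from 0.97 to 1.72. The largest was MAPK6-DT, next to the gene of an atypical MAP kinase. MAPK6-DT was at 0.645, 0.439 and 0.475 CPM in the U2OS-AsiSI siCtrl libraries and at 1.4, 1.59 and 2.12 CPM with siINTS11, a log2 change of 1.72 ± 0.24 (edgeR adjusted p = 1.75e-07). MAPK6 itself fell from 153, 151 and 154 CPM to 128, 132 and 128 CPM (-0.24 ± 0.04, edgeR adjusted p = 1.93e-05). The siRNA groups were apart for both genes, in opposite directions.

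METTL14-DT lies next to METTL14, which encodes a subunit of the RNA N6-adenosine methyltransferase. It was at 1.43, 0.909 and 1.1 CPM with siCtrl and at 3.04, 3.48 and 3.18 CPM with siINTS11 (log2 change 1.5 ± 0.17, edgeR adjusted p = 3.29e-09). METTL14 was at 45.4, 48.4 and 45.4 CPM and then 38.8, 36.8 and 38.4 CPM (-0.28 ± 0.05, edgeR adjusted p = 1.45e-05). Every siINTS11 library was above every siCtrl library for the DT transcript and below them for the gene. The starts of this pair, whose promoter sequence is shown above, are 49 bases apart.

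MAP3K2-DT rose without a called change of its partner, which encodes a MAP kinase kinase kinase. Its libraries were at 4.92, 5.2 and 5.15 CPM with siCtrl and at 10.8, 12 and 13.1 CPM with siINTS11 (1.24 ± 0.09, edgeR adjusted p = 6.69e-13). MAP3K2 was at 182, 176 and 169 CPM and then 183, 183 and 176 CPM, so its groups overlapped. CCDC15-DT had the same layout of values (0.97 ± 0.19 for the DT transcript, 0.02 ± 0.06 for CCDC15).

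The other 6 of the largest rises were IBA57-DT (1.09 ± 0.15), LYPLAL1-DT (1.06 ± 0.20), NSMCE1-DT (1.02 ± 0.14), ODC1-DT (1.01 ± 0.08), CD2BP2-DT (1.01 ± 0.15) and DNAJB5-DT (1.01 ± 0.12), as log2 changes with their SE. IBA57 takes part in mitochondrial iron-sulfur cluster assembly, NSMCE1 is a ubiquitin ligase of a chromosome maintenance complex, and ODC1 is the rate-limiting enzyme of polyamine synthesis. CD2BP2 is a component of a spliceosomal snRNP and DNAJB5 a co-chaperone. All of these partners except LYPLAL1 rose too, by 0.24 to 0.42, less than their DT transcript. LYPLAL1, a lysophospholipase-like protein, fell (-0.18 ± 0.05, edgeR adjusted p = 0.00321).

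ODC1 is shown as an example of a pair in which both genes rose. ODC1-DT was at 7.33, 7.64 and 6.91 CPM with siCtrl and at 13.7, 15.7 and 14.8 CPM with siINTS11. ODC1 went from 61.5, 62.4 and 70.3 CPM to 80.6, 93.0 and 81.9 CPM (0.40 ± 0.06, edgeR adjusted p = 2.26e-07). The groups did not overlap for either gene, and the DT transcript roughly doubled while the gene rose by less.

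The largest fall among the DT transcripts was that of EDIL3-DT. It was at 51.6, 52.8 and 51.6 CPM in U2OS-AsiSI siCtrl and at 20.4, 18.5 and 23.1 CPM with siINTS11 (log2 change -1.32 ± 0.06, edgeR adjusted p = 5.22e-18). EDIL3, a secreted integrin ligand of the extracellular matrix, fell with it (-1.15 ± 0.05, edgeR adjusted p = 3.67e-19). The counted spans of EDIL3-DT and EDIL3 overlap at their 5′ ends by 2457 bases.

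The next falls by the same limits were those of LGALSL-DT (-0.66 ± 0.08), SAP30-DT (-0.57 ± 0.17), GMDS-DT (-0.35 ± 0.08), CNOT2-DT (-0.31 ± 0.08) and TMED2-DT (-0.28 ± 0.09). LGALSL is a galectin-like protein, SAP30 a subunit of a histone deacetylase complex, GMDS an enzyme of GDP-fucose synthesis, CNOT2 a subunit of a deadenylase complex and TMED2 a cargo receptor of the secretory pathway. All 5 partners fell as well, by -1.03 to -0.25. LGALSL-DT was at 12.6, 12.7 and 11.6 CPM and then 7.96, 7.57 and 7.7 CPM, and LGALSL at 12.7, 13.2 and 14.6 CPM and then 6.6, 7.09 and 6.99 CPM. The starts of that pair are 2 bases apart, and both genes fell without overlap of the groups. VPS13B-DT (-0.21 ± 0.07) and BAIAP2-DT (-0.23 ± 0.10) completed the 8 largest falls. The smaller falls changed with the scaling. Where library totals alone were used, which raised the median of all genes from 0.03 to 0.22, 4 DT transcripts were called lower in place of 12, and GMDS-DT (-0.16), CNOT2-DT (-0.11), TMED2-DT (-0.09), VPS13B-DT (-0.02) and BAIAP2-DT (-0.04) did not pass.

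The comparison in U2OS used 6 other libraries. Here 96 DT transcripts were tested, of which 57 were higher and 10 lower with siINTS11, beside 34.5% of the 20687 tested genes higher and 32.4% lower. The median log2 change was 0.49, against 0.02 over all tested genes. BARX1-DT, MPP7-DT and LHX1-DT, named after their values were seen, passed the filter through their siINTS11 libraries alone. Among the partners, 23 of 120 were higher and 67 lower (median -0.21). The 36 untested DT transcripts had 72 to 137 reads per library in sum, of which 20 had a higher mean CPM with siINTS11, 6 a lower one and 10 no reads.

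The DT transcripts tested in both lines moved alike. Of 91, 80 had the same sign in U2OS-AsiSI and U2OS, 49 were called higher in both and 8 lower in both, and none was called in opposite directions. Across these 91 genes the log2 changes had a Pearson r of 0.86 and a Spearman rho of 0.86, given as a description, since genes are not independent replicates. The partners moved alike too. Of 120, 109 had the same sign, 18 were called higher in both lines and 56 lower in both, with a Pearson r of 0.93. The same counts were not made over all genes, so nothing particular to DT transcripts is read from them. METTL14-DT was at 1.49, 1.33 and 1.73 CPM in U2OS siCtrl and at 4.14, 3.66 and 3.45 CPM with siINTS11 (1.29 ± 0.15, edgeR adjusted p = 3.34e-10). MAP3K2-DT was at 4.77, 5.63 and 5.22 CPM and then 14.7, 14.2 and 15.5 CPM (1.47 ± 0.09, edgeR adjusted p = 4.99e-19). EDIL3-DT was at 75.8, 73.6 and 69.0 CPM and then 34.7, 38.6 and 41.2 CPM (-0.96 ± 0.05, edgeR adjusted p = 8.79e-18). All 10 of the largest rises in U2OS-AsiSI were also called in U2OS, with log2 changes from 0.76 to 1.48. Of the 8 largest falls, EDIL3-DT, LGALSL-DT, SAP30-DT, GMDS-DT and CNOT2-DT were called lower in U2OS too, and TMED2-DT (-0.05 ± 0.09), BAIAP2-DT (-0.12 ± 0.09) and VPS13B-DT (0.05 ± 0.07) did not pass there; with library totals alone VPS13B-DT was called higher in U2OS (0.25). Without replicate 2 of U2OS siCtrl, the falls of GMDS-DT and CNOT2-DT in U2OS did not pass either (-0.16 and -0.14).

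Set against its partner, the DT transcript usually changed upward. In U2OS-AsiSI, 88 pairs had both genes tested, and the log2 change of the DT transcript was above that of its partner in 75. Of the 51 DT transcripts called higher in these pairs, 21 had a partner called lower, 15 a partner called higher and 15 a partner not called. Of the 12 called lower, 9 had a partner called lower (CNOT2, ECI2, EDIL3, GMDS, LGALSL, NIPBL, SAP30, TMED2 and VPS13B), GARS1 and ITGB1 were not called, and BAIAP2 was higher. In U2OS, 76 of 90 DT transcripts were above their partner, and of 54 called higher 24 had a lower partner, 13 a higher one and 17 one not called. The changes of DT transcript and partner were weakly related across pairs (Pearson r of 0.37 over 88 pairs in U2OS-AsiSI and 0.22 over 90 in U2OS, as descriptions).

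**Figure D3:**
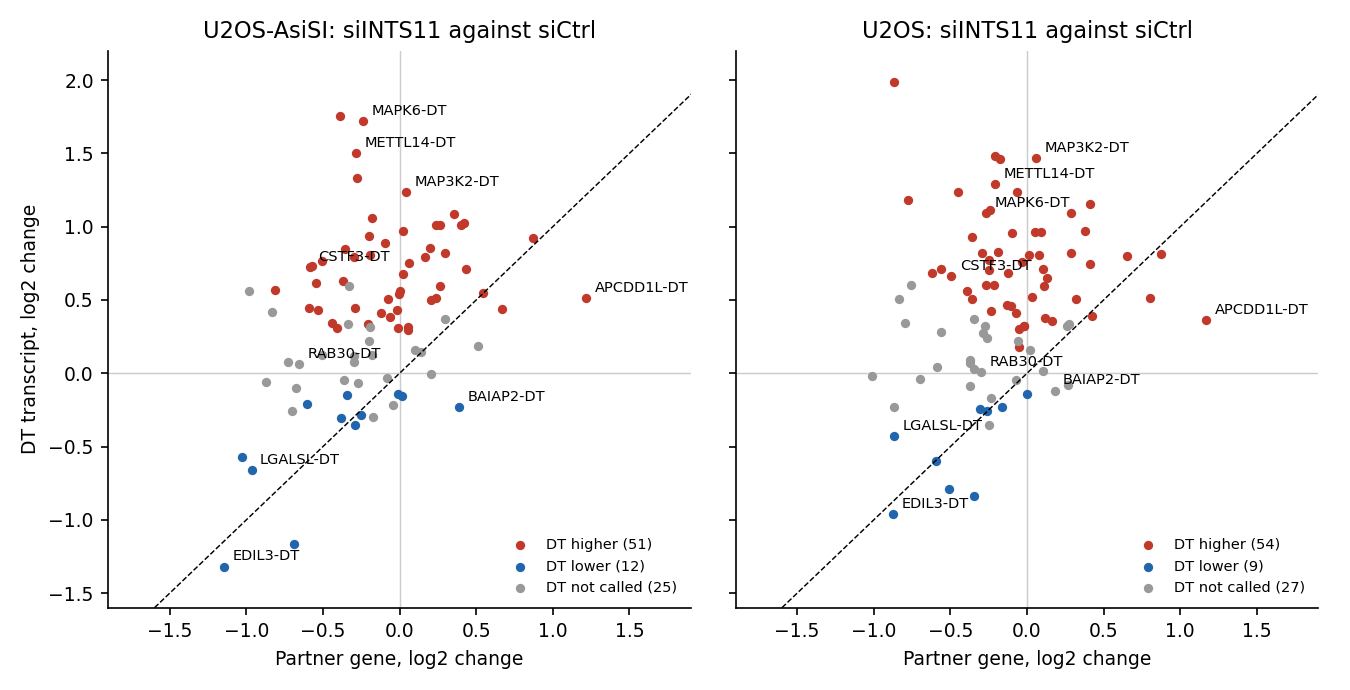
Log2 change with siINTS11 of each DT transcript (vertical) against that of its partner (horizontal), 88 pairs in U2OS-AsiSI and 90 in U2OS. Colours give the edgeR call of the DT transcript and the dashed line marks equal change; 75 and 76 points lie above it, and EDIL3-DT, with both genes lower, lies at the lower left.

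The ratio of DT transcript to partner within each library was tested with limma on log2 CPM, together with 3119 other pairs of genes on opposite strands whose starts lie within 2000 bases, taken as the gene with the lower level per length over the other. The scaling of a library cancels in this ratio. In U2OS-AsiSI the ratio rose in 66 of 93 DT pairs and fell in 6, beside 47% of all 3212 pairs higher and 20.5% lower, and the median log2 change was 0.55 for DT pairs and 0.25 for the other pairs. In U2OS it rose in 63 and fell in 5, beside 47.5% and 19.1% of all pairs, with medians of 0.57 and 0.26. Of the 93 DT pairs, 59 were called higher in both lines and 3 lower in both, a count not made over all pairs.

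The other pairs were not alike. In the 356 of them whose lower gene is named as a LINC, antisense or intronic transcript, the ratio rose in 68.0% and fell in 7.3% in U2OS-AsiSI, with a median of 0.55, against 71.0%, 6.45% and 0.55 for the DT pairs. In U2OS the same pairs gave 67.7%, 6.46% and 0.57, against 67.7%, 5.38% and 0.57. In the remaining 2763 pairs 43.5% rose and 22.7% fell in U2OS-AsiSI. The DT pairs thus stood at the values of other head-to-head pairs with a named non-coding member.

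**Figure D4:**
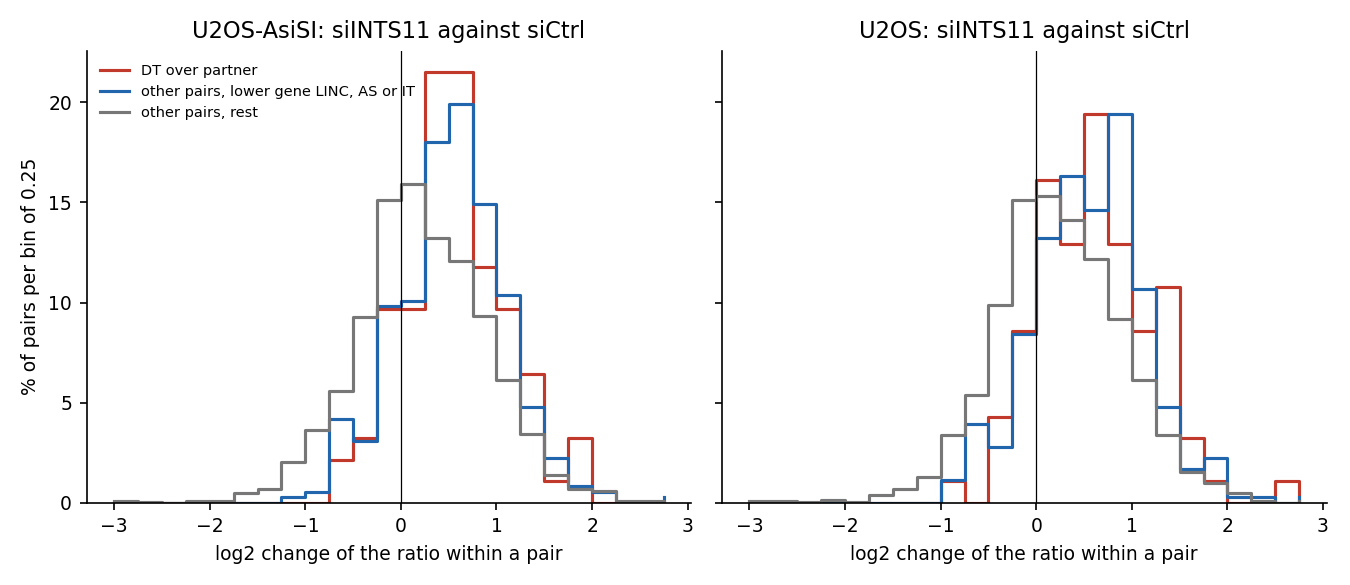
Share of pairs (vertical, %) by log2 change of the within-pair ratio with siINTS11 (horizontal, bins of 0.25), for DT transcripts over their partners (93 pairs), other head-to-head pairs whose lower gene is named LINC, AS or IT (356) and the remaining pairs (2763). The DT pairs and the LINC, AS or IT pairs both had a median of 0.55 in U2OS-AsiSI, to the right of the remaining pairs at 0.20. Single bins of their curves differed, as in the bin starting at 1.25 in U2OS (10.8% of DT pairs against 4.78%).

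The rise of the ratio came from either side. In 21 of the 66 pairs with a higher ratio in U2OS-AsiSI, the DT transcript was called higher and the partner lower. In 26 the DT transcript was called higher and the partner was not called lower. These 26 take in pairs whose partner was called higher too. In 18 the partner was called lower and the DT transcript was not called higher, and in 1 neither held. In U2OS the 63 pairs split, in the same order, into 24, 22, 17 and 0. Among pairs whose DT transcript averaged 30 or more reads in its higher group, the largest rises of the ratio in U2OS-AsiSI after MAPK6-DT and METTL14-DT were at CSTF3-DT (1.31 ± 0.10), SPAG16-DT (1.31 ± 0.24), UVRAG-DT (1.28 ± 0.22) and LAPTM4A-DT (1.27 ± 0.17), all with a falling partner.

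CSTF3 encodes a subunit of the cleavage stimulation factor of the polyadenylation machinery. CSTF3-DT was at 5.6, 5.83 and 6.43 CPM with siCtrl and at 9.12, 10.3 and 9.96 CPM with siINTS11 (0.72 ± 0.09, edgeR adjusted p = 4.63e-08). CSTF3 fell from 236, 224 and 235 CPM to 159, 155 and 147 CPM (-0.59 ± 0.05, edgeR adjusted p = 1.28e-12). The same held in U2OS (0.67 ± 0.09 and -0.49 ± 0.04). The 5′ ends of this pair overlap on opposite strands, and the genes moved in opposite directions in both lines.

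SPAG16, a protein of the ciliary axoneme, and UVRAG, a protein of autophagy and endosomal transport, are long genes that fell by -0.81 ± 0.05 and -0.57 ± 0.05 in U2OS-AsiSI. SPAG16-DT was at 0.713, 0.689 and 1.1 CPM with siCtrl and at 1.33, 0.881 and 1.37 CPM with siINTS11. Its groups overlapped, and its call (0.57 ± 0.23, edgeR adjusted p = 0.0323) was lost when any of 4 of the 6 libraries was left out (0.44 to 0.49 without replicate 1 or 2 of siCtrl or replicate 1 or 3 of siINTS11). UVRAG-DT rose without overlap (0.73 ± 0.22, edgeR adjusted p = 0.00421), a call not made by DESeq2 (0.70, adjusted p = 0.0822), and LAPTM4A-DT, next to the gene of a lysosomal membrane protein, rose by 0.77 ± 0.17. PCCA-DT, whose promoter sequence is shown above, was at 5.26, 5.08 and 4.39 CPM and then 6.85, 5.99 and 6.92 CPM (0.43 ± 0.11, edgeR adjusted p = 0.000573). PCCA, the alpha subunit of propionyl-CoA carboxylase, fell by -0.53 ± 0.05.

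The ratio fell in 6 pairs in U2OS-AsiSI. In the APCDD1L pair both genes rose, the partner more. APCDD1L-DT was at 167, 160.0 and 153 CPM and then 235, 225 and 223 CPM (0.51 ± 0.05, edgeR adjusted p = 2.98e-11), and APCDD1L at 16.7, 18 and 18.5 CPM and then 40.0, 40.4 and 42.8 CPM (1.22 ± 0.06, edgeR adjusted p = 1.23e-17). The ratio changed by -0.70 ± 0.07 in U2OS-AsiSI and -0.80 ± 0.07 in U2OS (limma adjusted p = 7.58e-12 and 1.62e-13). This DT transcript has the most reads of all members and overlaps other genes on its own strand over 9557 of its 104510 bases, where reads were not counted.

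BAIAP2-DT was the member with a called fall beside a called rise of its partner, a membrane-bending adaptor protein. It was at 7.26, 7.77 and 7.27 CPM and then 6.78, 5.59 and 6.47 CPM (-0.23 ± 0.10, edgeR adjusted p = 0.0347), while BAIAP2 rose by 0.39 ± 0.05. The fall of the DT transcript did not pass with library totals (-0.04), with DESeq2 (-0.27, adjusted p = 0.091), or without replicate 2 of siCtrl (-0.20) or replicates 2 or 3 of siINTS11 (-0.17 and -0.25). The ratio fell in both lines (-0.63 ± 0.11 and -0.30 ± 0.11, limma adjusted p = 2.48e-06 and 0.0139), though not in U2OS without replicate 2 of siCtrl (-0.22).

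The other 4 falls of the ratio were smaller. At MAFG, which encodes a small MAF transcription factor, the gene rose (0.51 ± 0.06) and MAFG-DT was not called (0.18 ± 0.13), for a ratio change of -0.34 ± 0.14 (limma adjusted p = 0.0281). That call was lost without replicate 1 or 3 of siCtrl (-0.29 and -0.31) or replicate 2 or 3 of siINTS11 (-0.31 and -0.27). The ratio changes at EDIL3, GARS1 (glycyl-tRNA synthetase) and ITGB1 (integrin beta-1) were -0.18 ± 0.06, -0.17 ± 0.06 and -0.13 ± 0.04, and the fall at ITGB1 was lost without replicate 2 of siCtrl (-0.09). The calls on GARS-DT and ITGB1-DT themselves (-0.15 ± 0.05 and -0.14 ± 0.05) turned to 0.04 and 0.05 with library totals alone and did not pass there. With a mean count of at least 50 neither passed (-0.099 and -0.09). GARS-DT also did not pass with thinned libraries (-0.128), or without replicate 1 of siCtrl (-0.126) or replicate 3 of siINTS11 (-0.142). ITGB1-DT did not pass without replicate 2 of siCtrl (-0.121).

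**Figure D5:**
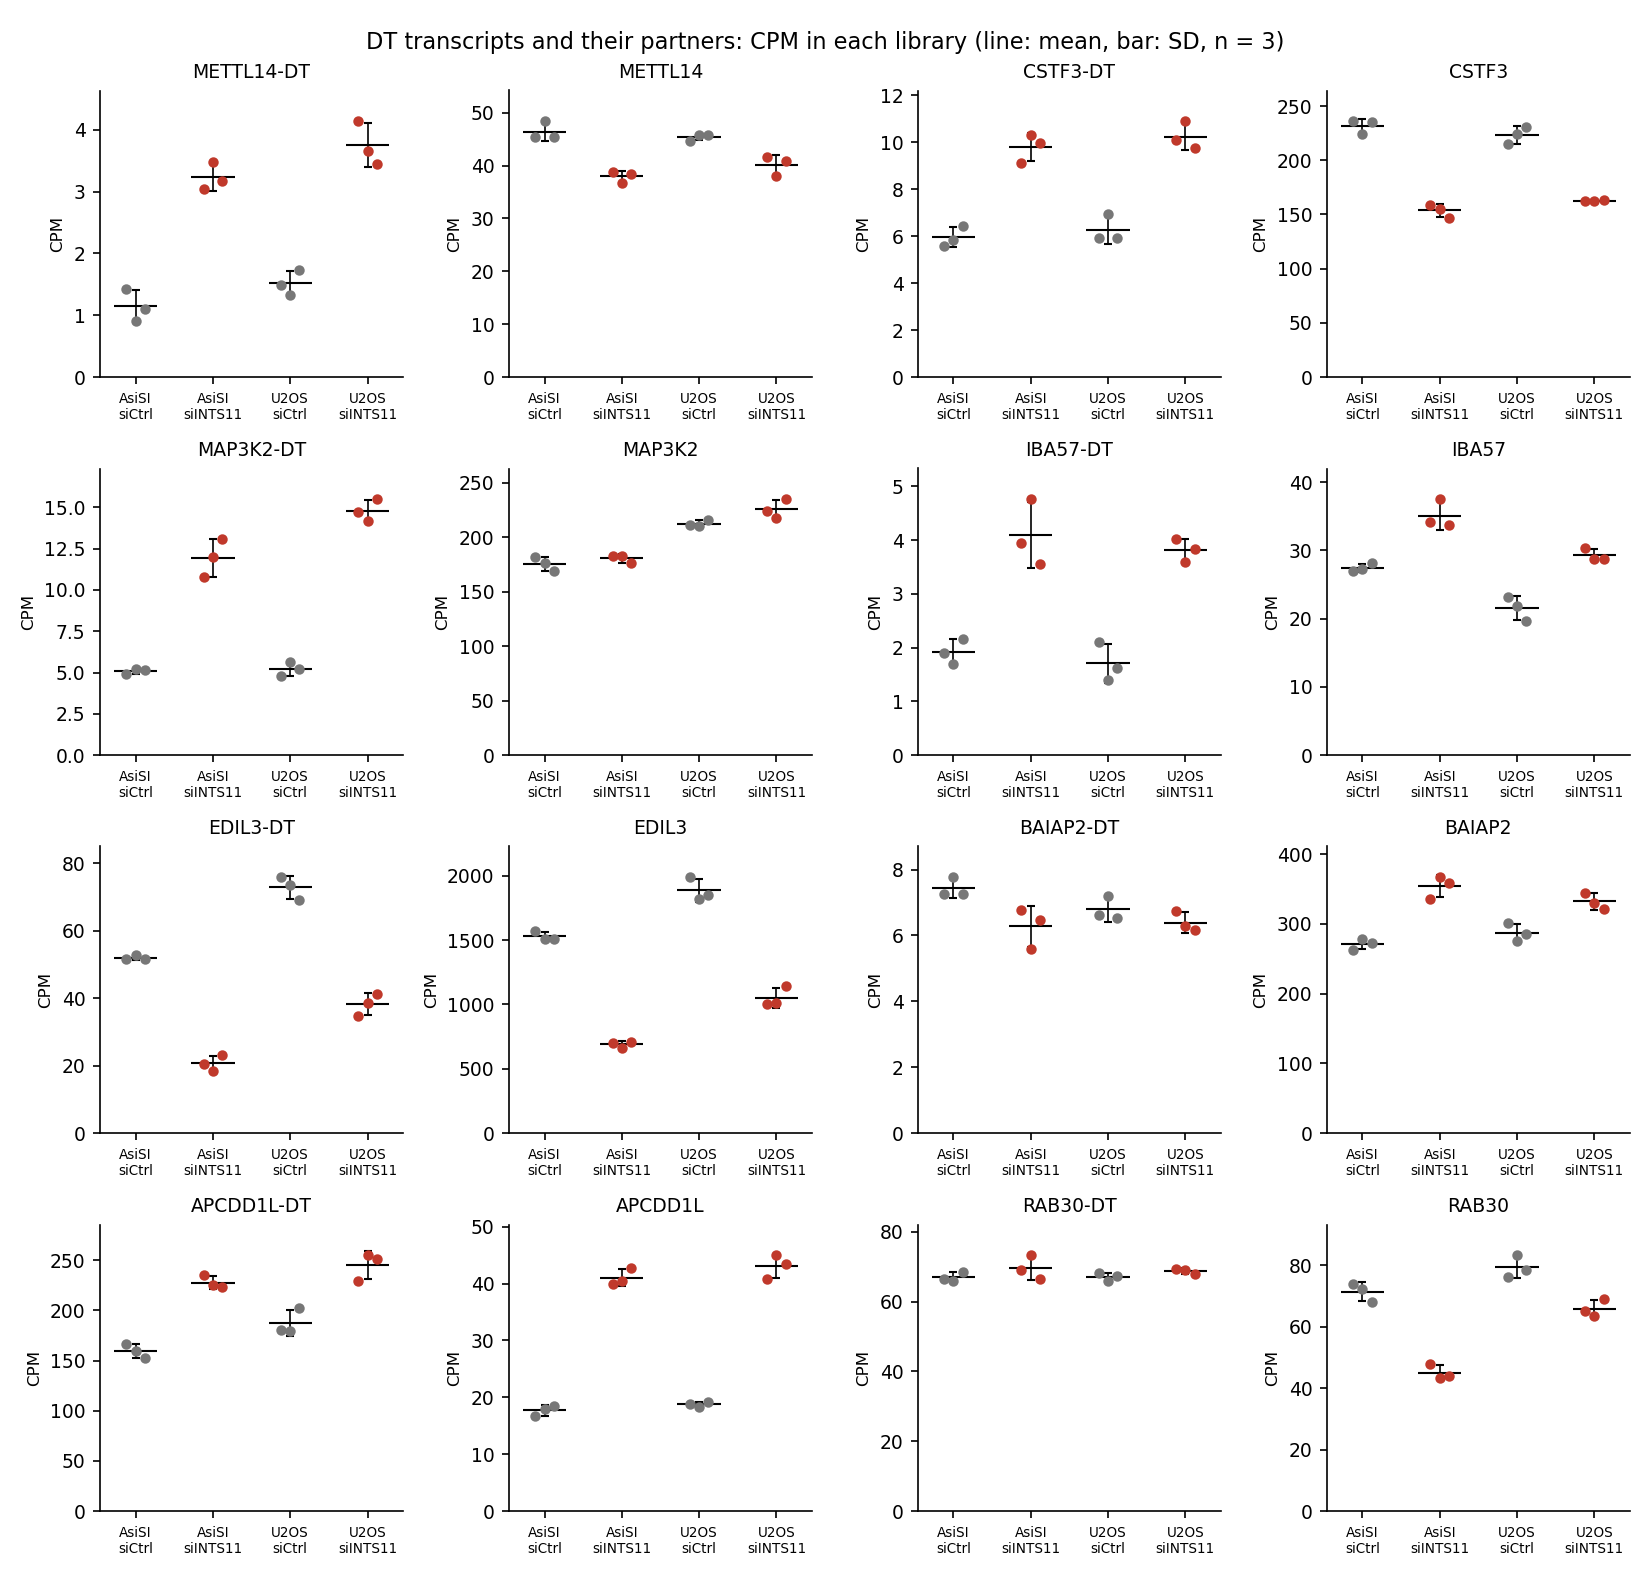
CPM in each of the 12 libraries for 8 DT transcripts, each beside its partner; points are libraries, horizontal lines are means and bars are SD (n = 3), with siCtrl in grey and siINTS11 in red. METTL14-DT and CSTF3-DT rise while METTL14 and CSTF3 fall, EDIL3-DT and EDIL3 fall together, and RAB30-DT lies between 65.8 and 73.3 CPM in every library while RAB30 falls.

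Layout and length were set beside the calls. In U2OS-AsiSI the pairs with a gap between the starts had 35 of 59 tested DT transcripts higher and 5 lower (median 0.44), and the pairs with overlapping 5′ ends 16 of 27 and 5 (median 0.43). The 6 tested DT transcripts with starts over 2000 bases from the partner had 2 higher and 2 lower. Among DT transcripts under 5 kb, 21 of 31 were higher and 0 lower by edgeR, also at an unadjusted p under 0.05 (median 0.56), where 50.7% of all tested genes of that length were higher and 9.8% lower. Between 5 and 20 kb, 12 of 19 were higher and 3 lower (all genes 45.4% and 15.8%), and over 20 kb 20 of 42 were higher and 9 lower (all genes 27.8% and 44.6%). In U2OS the numbers under 5 kb were 24 of 33 higher and 1 lower (all genes 40.5% and 13.2%). Over 20 kb they were 22 of 43 and 9 (all genes 28.7% and 43.8%). The lower calls were thus mostly among the longest DT transcripts, as among all genes. The share called lower over 20 kb was smaller for DT transcripts than for all genes.

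The partners also differed by length. Partners over 60 kb had 39 of 58 lower and 11 higher in U2OS-AsiSI (median -0.35), and partners under 20 kb 9 of 29 lower and 8 higher (median -0.04). Among all tested genes there, 44.6% of those over 20 kb were lower, against 15.8% of those of 5 to 20 kb and 9.8% of those under 5 kb. These length classes differ from those of the partners, so the shares cannot be set against each other class by class. The DT transcripts of the long partners had a median change of 0.37 and those of the short partners 0.42. The median ratio change was 0.72 over 43 pairs with a partner over 60 kb and 0.47 over 25 pairs with a partner under 20 kb. In U2OS these medians were 0.85 and 0.56.

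Whether siINTS11 acted differently in the 2 lines was tested as the difference of the 2 changes, over all 12 libraries. Of 99 DT transcripts tested, 0 were higher by edgeR (2 at an unadjusted p under 0.05, and 0 by DESeq2) and 1 was lower, beside 0.762% of the 21521 tested genes higher and 3.1% lower. The 1 was EDIL3-DT, which fell further in U2OS-AsiSI by -0.39 ± 0.09 (edgeR adjusted p = 0.0086), as did EDIL3 (-0.31 ± 0.07, edgeR adjusted p = 0.0112). The call on EDIL3-DT was lost without replicate 3 of U2OS siCtrl, replicate 3 of U2OS siINTS11 or replicate 2 of U2OS-AsiSI siINTS11. For the ratio, 1 of 93 DT pairs was higher in U2OS-AsiSI and 0 lower by limma (5 at an unadjusted p under 0.05), beside 0.342% of all pairs in each direction.

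That pair was RAB30, a GTPase of the Golgi. RAB30-DT was at 66.6, 65.8 and 68.5 CPM with siCtrl and 69.1, 73.3 and 66.6 CPM with siINTS11 in U2OS-AsiSI, and at 68.2, 65.9 and 67.4 and then 69.4, 69.2 and 67.9 CPM in U2OS. It was called in neither line (0.06 ± 0.05 and 0.01 ± 0.04), with overlapping groups, though with library totals alone it was called higher in both (0.25 and 0.21). RAB30 fell from 73.9, 72.1 and 67.9 CPM to 47.9, 43.4 and 43.8 CPM in U2OS-AsiSI (-0.66 ± 0.05) and from 76.1, 83.2 and 78.5 to 65.0, 63.3 and 68.8 CPM in U2OS (-0.30 ± 0.04). The ratio rose by 0.72 ± 0.06 and 0.31 ± 0.06, a difference of 0.41 ± 0.08 (limma adjusted p = 0.00638). The difference did not pass without replicate 3 of U2OS siINTS11. RAB30 overlaps other genes on its own strand over 66716 of its 98791 bases, where reads were not counted. RAB30-DT does so over 452 of its 35738 bases. The pair is thus not among those without such overlaps. FBXO3-DT, named after its values were seen, had siRNA groups that did not overlap in opposite directions. It was at 0.373, 0.282 and 0.256 CPM and then 0.384, 0.396 and 0.582 CPM in U2OS-AsiSI, and at 0.51, 0.481 and 0.459 CPM and then 0.332, 0.229 and 0.255 CPM in U2OS. The difference did not pass the test (edgeR adjusted p = 0.0839), at few reads per library.

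The lines themselves were compared under each siRNA. Under siCtrl, 14 of 92 tested DT transcripts were higher in U2OS-AsiSI than in U2OS and 8 lower, beside 17.8% of the 19935 tested genes higher and 17.2% lower; DESeq2 called 9 higher, and without replicate 2 of U2OS siCtrl 5 were lower. Among the largest differences upward were MAFG-DT (0.66 ± 0.14), PCCA-DT (0.58 ± 0.13) and SH3TC2-DT (0.57 ± 0.16). PCCA-DT was at 2.7, 3.48 and 3.67 CPM in U2OS siCtrl, below its 3 U2OS-AsiSI siCtrl libraries given above, while PCCA was lower in U2OS-AsiSI (-0.28 ± 0.05, edgeR adjusted p = 1.18e-05). The largest differences downward were FZD4-DT (-0.50 ± 0.15), EDIL3-DT (-0.48 ± 0.05), SAP30-DT (-0.48 ± 0.16) and EPCAM-DT (-0.44 ± 0.08). No difference was called for FZD4, a Wnt receptor, or for EPCAM (0.14 ± 0.10 and -0.05 ± 0.12). Under siINTS11, 18 of 97 were higher and 15 lower, beside 22.2% and 21.4% of the 20802 tested genes; without replicate 3 of U2OS siINTS11, 11 were higher and 11 lower, and DESeq2 called 9 higher.

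Genes of the machinery that ends and degrades promoter-proximal RNA were listed to set beside the DT transcripts. Of 19 genes of cleavage, polyadenylation and termination, 10 were lower and 2 higher in U2OS-AsiSI (median -0.16), where 32.6% of all tested genes were lower and 35.4% higher, and 12 of the 18 tested were lower and 2 higher in U2OS (all tested genes 32.4% and 34.5%). Most of these lists are short, and nothing particular to them is read from their counts. CSTF3, which is also the partner of CSTF3-DT, had the smallest adjusted p, and PCF11, a termination factor, fell by -0.37 ± 0.05 in U2OS-AsiSI. PPP1R10, a phosphatase regulator, rose by 0.68 ± 0.10 in U2OS-AsiSI but was not called in U2OS (-0.08 ± 0.11), and the difference between the lines was called (0.73 ± 0.14, edgeR adjusted p = 0.00378). Of 13 nuclear exosome genes tested, 2 were higher and 5 lower in U2OS-AsiSI, and 5 higher and 3 lower in U2OS. MTREX, the exosome's RNA helicase, fell by -0.31 ± 0.05 in U2OS-AsiSI. Of 6 tested adaptor genes that guide RNA to the exosome, 3 were lower and 0 higher by edgeR in U2OS-AsiSI, also at an unadjusted p under 0.05, RBM26, ZFC3H1 and ZC3H3 (-0.29 to -0.22), and 4 were lower in U2OS. Of 8 genes of cap binding and early termination, 2 were higher and 1 lower in U2OS-AsiSI, with ZC3H4 at 0.41 ± 0.05 and NCBP2 at 0.41 ± 0.06. Of 13 other Integrator subunits tested, 3 were higher and 6 lower in U2OS-AsiSI and 4 and 5 in U2OS, and of 3 U1 snRNP protein genes 2 were higher in each line.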

How the data were processed

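TT-seq was measured in 12 samples, 3 in each of 4 groups. The deposited values are raw read counts per gene made by the authors, in a featureCounts layout with 1 column per library, per the file headers. The submitters' processing notes name Trimmomatic 0.36, STAR 2.7, deepTools, featureCounts and the build hg38, and the strand setting is not given in the sources used here. Reads followed the strand of the annotation: of 4441 genes wholly covered by others on their own strand, 0 had a read, against 5909 of 9054 (65.3%) covered on the other strand. Bases shared on 1 strand were thus not counted. The labels' protocols name a yeast RNA spike-in, which was not used here, so changes are relative to the other genes.

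Groups came from the sample labels. Counts were scaled by TMM, filtered with filterByExpr (minimum count 10) and tested across all genes with edgeR 4.0.16 (quasi-likelihood) in R 4.3.3, with Benjamini-Hochberg adjustment and a threshold of 0.05. The siRNA comparisons and the line comparisons used the 6 libraries concerned, and the difference between the lines used all 12. Each comparison of the lines shares libraries with the siRNA comparisons. Ratios of paired genes were tested with limma 3.58.1 on log2 CPM (prior count 2). All tests were two-sided and were tested on simulated data. In some comparisons, though not all, the share of false calls there was above the threshold, so calls close to it are less certain.

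The members and lists were chosen with earlier results of these data known. Named by rule were INTS11, the 10 largest rises and 8 largest falls without overlap in U2OS-AsiSI (mean count of at least 30), the 6 largest ratio changes each way, the 6 highest levels, called differences between the lines, the 4 largest line differences each way under siCtrl, and 3 genes per list; 2 members so named are not reported here. Replicate numbers were not taken to pair samples: deviations of same-numbered samples correlated between -0.108 and 0.137. Alternatives were other scalings and filters, DESeq2 1.42.0, thinning, left-out overlaps, a replicate block and each library left out.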

Additional observations from a re-analysis of the deposited data

Results flagged for a closer look

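Of the DT transcripts, EDIL3-DT differed between the lines in its change with siINTS11: the fall in U2OS-AsiSI was larger than that in U2OS by -0.39 (log2, edgeR adjusted p = 0.0086). In the ratio of a DT transcript to its partner, RAB30-DT over RAB30 rose more in U2OS-AsiSI than in U2OS, by 0.41 (log2, limma adjusted p = 0.00638). Neither call held in every fit with 1 library left out, and the AsiSI-ER genotype and OHT cannot be told apart in either. Reads of RAB30 were not counted over 66716 of its 98791 bases, where other genes lie on its strand. Groups of 3 samples were not tested for single samples that stand apart.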

How the results depend on the processing

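The counts of DT transcripts called higher with siINTS11 stayed within 1.5 times of 53 and 57, and the counts of higher ratios within 1.5 times of 66 and 63, under every alternative run except the one that left out pairs overlapping another gene on their strand, which tests fewer pairs; the counts called lower moved more. With library totals alone, 4 were lower in each line, the medians were 0.623 in U2OS-AsiSI and 0.684 in U2OS, and those of the line differences were 0.144 under siCtrl and 0.057 under siINTS11. In that scaling GARS-DT stood at 0.039 in U2OS-AsiSI and 0.058 in U2OS, ITGB1-DT at 0.048 and NIPBL-DT at 0.042 in U2OS-AsiSI, all with the sign turned and none called. A filter at a mean count of 50 left 6 lower in each line and a median difference between the siRNA changes of -0.009, the value also found with no count filter. With no count filter the median line difference under siINTS11 was 0.045. Without members overlapping a gene on their strand, 6 were lower in U2OS-AsiSI and 5 in U2OS, 5 were lower between the lines under siCtrl, and the median line difference under siINTS11 was 0.056. DESeq2 called 9 higher between the lines under each siRNA. The cause of these shifts was not tested.

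For the ratio, a prior count of 8 gave a median of 0.515 in U2OS, and a mean count of at least 50 for both genes gave 0.441 in U2OS-AsiSI and 0.479 in U2OS. Without pairs overlapping another gene on their strand, 31 rose and 3 fell in U2OS-AsiSI, 29 rose and 3 fell in U2OS, and 0 differed between the lines. Without pairs over 0.1 reads per base, 2 fell in U2OS-AsiSI and 3 in U2OS, with a median of 0.645 in U2OS.

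Leaving out each library in turn gave 47 to 54 higher and 9 to 13 lower in U2OS-AsiSI (medians 0.354 to 0.489) and 55 to 58 and 7 to 9 in U2OS (0.467 to 0.547). Between the lines it gave 11 to 13 higher and 5 to 9 lower under siCtrl (medians 0.029 to 0.116) and 11 to 19 and 11 to 14 under siINTS11 (-0.022 to 0.057). The difference between the siRNA changes had 0 to 1 lower (medians -0.115 to -0.017). The ratio rose in 57 to 68 and fell in 5 to 7 pairs in U2OS-AsiSI (0.508 to 0.619) and in 59 to 65 and 3 to 5 in U2OS (0.536 to 0.624), and its difference between the lines was called higher in 0 to 1 pairs (medians -0.11 to 0.039).

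With the replicate block, 54 were higher and 12 lower in U2OS-AsiSI and 57 and 10 in U2OS, and the ratio rose in 66 and 63 pairs and fell in 6 and 4. Over the named members and all alternatives, 2262 values kept their call or lack of a call, 68 lost the call and 9 gained it. Another 4 turned sign with a call in the main fit or the alternative. Values called in neither fit were counted as kept whatever their sign. Members with few reads limit the precision: the median SE of those not called was 0.17 in U2OS-AsiSI and 0.16 in U2OS.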
